A study of Mus musculus with 4 samples.

Results

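SMAD4 regions of gene deserts were examined in mouse alveolar macrophages (AMs), which live on the airway side of the lung alveoli. A shared region was a merged interval of SMAD4 peaks that overlapped by 1 bp or more and held a peak of each of the 2 SMAD4 libraries. A gene-desert region was a shared region whose midpoint lay outside curated RefSeq transcripts of mm10 and more than 100 kb from the nearest transcription start site (TSS). Of 10964 shared regions, 597 met this rule (5.45%, exact 95% interval 5.03 to 5.89). The rule used position and the presence of a peak in both libraries, and, beyond the authors' peak calls, no strength or sequence. The AMs came from wild-type C57BL/6J mice, 9 weeks old, by bronchoalveolar lavage and sorting, and the labels give no treatment. SMAD4 binding was profiled by HT-ChIPmentation. In this form of chromatin immunoprecipitation, Tn5 transposase inserts the sequencing adapters into bead-bound chromatin. The 4 samples were 2 SMAD4 libraries and 2 input libraries made without antibody. There was no other condition. Whether the SMAD4 libraries came from separate animals is not given in the sources used here, so the spread between them may be technical.

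SMAD4 is the common partner of the receptor-activated SMAD proteins. After TGFβ or BMP ligands engage their receptors, SMAD2 and SMAD3, or SMAD1 and SMAD5, are phosphorylated and enter the nucleus with SMAD4. SMAD proteins bind short GTCT-containing sequences weakly, and in differentiated cells they are known to occupy enhancers already opened by lineage factors such as PU.1 and C/EBP in macrophages. TGFβ is required for AM development. Regulatory elements far from any gene can contact a promoter over long stretches of gene-free sequence, and developmental genes and transcription factors often lie next to such stretches. The nearest gene of a distant region is therefore a label of position here, not an assigned target.

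The windows of 100 bp each side of the summit of 6 regions are shown first as examples. These are the 3 strongest regions and the strongest regions near Cited2, Klf4 and Zeb2. The windows were picked for strength and do not show the range of sequence in the 597 regions. They are from the plus strand of the RefSeq sequence of GRCm38, the assembly named mm10. Capitals mark matches, on either strand, to any of the 16 consensus strings searched.
Clvs1, 158.6 kb upstream, chr4:9110471-9110671: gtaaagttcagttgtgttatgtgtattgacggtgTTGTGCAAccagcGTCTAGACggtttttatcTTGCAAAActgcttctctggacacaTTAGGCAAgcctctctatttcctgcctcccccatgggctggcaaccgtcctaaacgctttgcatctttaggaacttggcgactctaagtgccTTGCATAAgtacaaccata
Trps1, 485.0 kb downstream, chr15:50403943-50404143: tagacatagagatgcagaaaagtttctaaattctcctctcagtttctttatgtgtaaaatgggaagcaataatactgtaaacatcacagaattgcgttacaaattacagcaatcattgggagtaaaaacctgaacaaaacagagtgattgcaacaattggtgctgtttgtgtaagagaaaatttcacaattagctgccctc
Mir99ahg, 154.2 kb upstream, chr16:77174806-77175006: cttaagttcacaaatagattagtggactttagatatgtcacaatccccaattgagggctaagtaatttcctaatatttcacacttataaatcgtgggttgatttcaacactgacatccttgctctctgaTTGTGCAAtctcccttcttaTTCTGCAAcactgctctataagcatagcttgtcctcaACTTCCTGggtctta
Cited2, 172.4 kb upstream, chr10:17550761-17550961: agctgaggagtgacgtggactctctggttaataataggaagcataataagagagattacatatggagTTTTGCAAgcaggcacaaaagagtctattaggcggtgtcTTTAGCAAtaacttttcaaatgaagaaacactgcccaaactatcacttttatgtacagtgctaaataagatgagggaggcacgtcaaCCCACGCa
Klf4, 427.8 kb upstream, chr4:55960093-55960293: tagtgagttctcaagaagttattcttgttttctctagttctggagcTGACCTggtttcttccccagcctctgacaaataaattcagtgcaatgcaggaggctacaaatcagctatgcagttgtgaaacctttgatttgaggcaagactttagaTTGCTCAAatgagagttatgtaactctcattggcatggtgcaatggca
Zeb2, 162.3 kb upstream, chr2:45279548-45279748: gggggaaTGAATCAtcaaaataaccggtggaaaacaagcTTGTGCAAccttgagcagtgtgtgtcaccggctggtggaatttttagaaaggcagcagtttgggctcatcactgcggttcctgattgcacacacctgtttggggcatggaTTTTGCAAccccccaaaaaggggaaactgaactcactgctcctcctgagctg
The Clvs1 window held 4 copies of the C/EBP string (TTGCNNAA) and the palindrome GTCTAGAC that SMAD proteins bind. The Trps1 window, from the second strongest region, held none of the 16 strings. The Mir99ahg window held 2 C/EBP strings and an ETS string (CAGGAAGT), the Cited2 window 2 C/EBP strings and an EGR string (GCGTGGG), the Klf4 window a C/EBP string and a nuclear receptor string (AGGTCA), and the Zeb2 window 2 C/EBP strings and an AP-1 string (TGANTCA).

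Gene deserts held few SMAD4 regions for their size. Sequence outside transcripts and beyond 100 kb from a TSS made up 686.1 Mb, or 26.8% of the sequenced genome, and carried 5.45% of the shared regions. The density was 0.870 regions per Mb, against 4.26 per Mb in intergenic sequence 10 to 100 kb from a TSS and 4.28 per Mb over the genome. Within the deserts it fell with distance up to 1000 kb. There were 390 regions at 100 to 200 kb (1.61 per Mb), 166 at 200 to 500 kb (0.600 per Mb), 30 at 500 to 1000 kb (0.237 per Mb) and 11 beyond 1000 kb (0.270 per Mb), so that 65.3% of the gene-desert regions lay within 200 kb. The median distance was 163.1 kb. Regions upstream (301) and downstream (296) of the nearest TSS were nearly equal in number. Desert sequence had a mean GC content of 39.1% and 40.6% of its bases were masked as repeats. The part of base composition and mappability in the density was not tested.

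**Figure D1:**
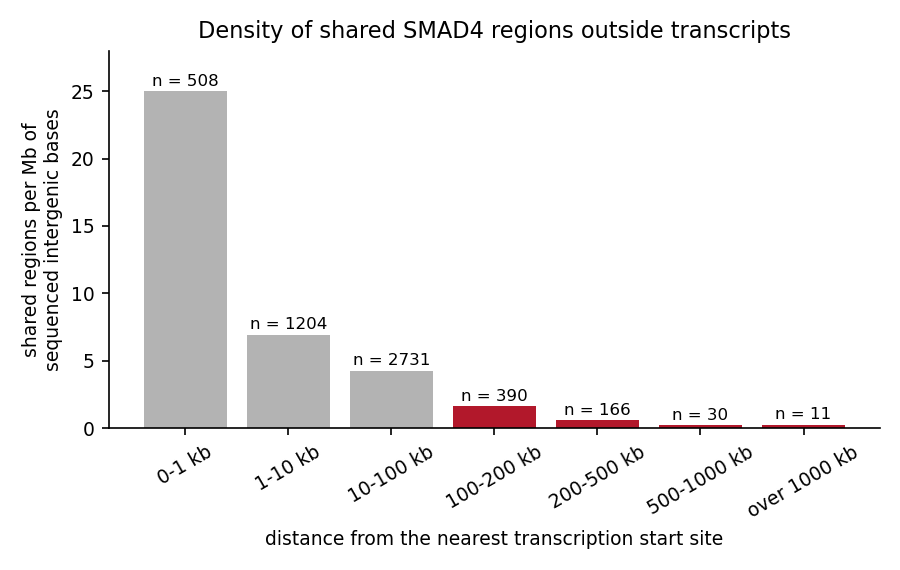
Bars give shared SMAD4 regions per Mb of sequenced bases outside curated transcripts (y axis), by distance from the nearest TSS (x axis), with the number of regions above each bar. The 4 red bars are gene-desert classes and run from 1.61 down to 0.237 per Mb, below the 4.26 per Mb of the class at 10 to 100 kb.

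The chromosomes contributed unequally. Chromosome 10 had the highest share, with 70 of its 656 shared regions in gene deserts (10.7%), and chromosome 7 the lowest, with 10 of 617 (1.62%).

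A smaller share of gene-desert peaks than of all peaks had a partner in the other library. By peak midpoint, 2075 peaks of replicate 1 lay in gene deserts and 618 of them overlapped a replicate 2 peak (29.8%, exact 95% interval 27.8 to 31.8), against 69.4% of all replicate 1 peaks. In replicate 2, 616 of 1513 gene-desert peaks overlapped a replicate 1 peak (40.7%, 38.2 to 43.2), against 59.2% of all. The share was lower in both libraries. Both lists were also cut to peaks with a fold enrichment over control of at least 5, so that the partner had to pass too. The share was then 64.1% against 85.6% of all in replicate 1, and 50.8% against 57.7% in replicate 2. In each library the gap was smaller. The same fold takes more fragments in replicate 1, where the control background was 2.08 fragments against 1.22 in replicate 2. With 2 libraries, a paired exact permutation test cannot give a two-sided p below 0.5, so no test over samples was made. Intervals here and below cover counting error only.

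The gene-desert peaks without a partner were set against those with one, by the values of each library and with no test. Their median fold enrichment was 4.24 against 6.84 in replicate 1 and 4.96 against 9.48 in replicate 2. Their median widths were 134 and 123 bp, against 350 and 382 bp. The GC content of their summit windows averaged 26.6% in replicate 1 and 33.3% in replicate 2, where peaks with a partner had 41.2% and 41.4%. A C/EBP string was present in 10.9% and 18.1% of them, against 38.0% and 42.7% with a partner. Gene-desert peaks without a partner were thus weaker, narrower and richer in A and T in both lists. Over all peaks, those without a partner also had lower median folds (4.52 against 6.50 and 5.41 against 9.48). They were narrower (138 against 323 bp and 153 against 380 bp) and held fewer C/EBP strings (15.4% against 37.5% and 25.4% against 40.3%). Their GC content was 32.0% against 43.4% in replicate 1 and 43.3% against 43.9% in replicate 2. Gene deserts held 12.7% of the replicate 1 list and 7.96% of the replicate 2 list. The part of base composition in these differences was not tested.

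The 597 regions were about as strong as shared regions elsewhere. Fold enrichment is the number of fragments stacked at the summit plus 1, over the level expected from the control plus 1. In replicate 1 the median was 7.15 (interquartile range 5.20 to 10.4), with values from 1.91 to 39.6. In replicate 2 it was 9.93 (6.73 to 13.99), with values from 2.32 to 71.3. The mean of the 2 medians was 8.54 ± 1.96 (SD, n = 2). Intergenic regions at 10 to 100 kb had medians of 6.82 and 9.48, as did all shared regions. The gene-desert median was higher within each library, by 0.33 in replicate 1 and 0.45 in replicate 2, or 22 fragments at the summit against 21 in each; a paired test of 2 libraries cannot go below 0.5 here either. The median region width was 460 bp, against 440 bp over all shared regions. Of the gene-desert regions, 71 (11.9%) were in the strongest 10% of shared regions by the smaller of the 2 folds, where regions as a whole had 10.4% because of ties.

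Replicate 2 gave the higher fold at 501 of 597 regions (83.9%). The median summit held 22 fragments in both libraries, while the control background was 2.08 fragments in replicate 1 and 1.22 in replicate 2. Folds of replicate 2 were thus mostly taken over a smaller level, here and in each later count of regions higher in replicate 2. The part of the control level in these counts was not tested. The order of the regions was similar in both libraries, with Spearman's rho of 0.806 across the 597 regions and 0.782 across all shared regions; regions share each library's depth and are not replicates. Both folds were at least 5 at 442 regions, at least 10 at 151 and at least 20 at 34. Strength had little relation to distance, with a rho of 0.031 between distance and the smaller fold across the 597 regions. Regions at 200 to 500 kb had medians of 7.47 and 10.4, while the 30 regions at 500 to 1000 kb had 5.52 and 7.45 and the 11 beyond 1000 kb had 4.55 and 5.87. Of those 41 most distant regions, 10 had a fold of at least 10 in both libraries.

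**Figure D2:**
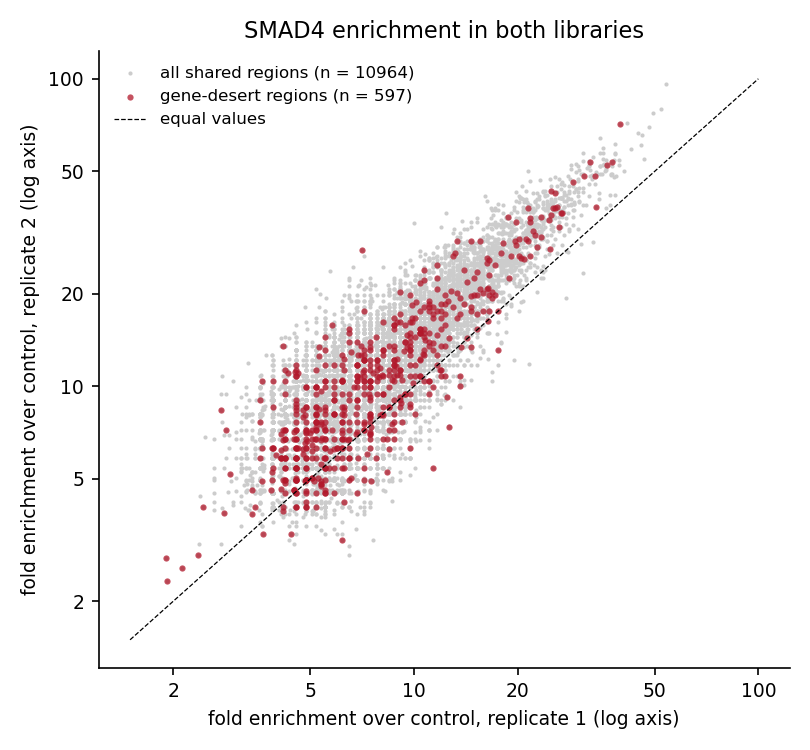
Each point is a shared region, with its fold enrichment over control in replicate 1 (x axis) and replicate 2 (y axis), both on log axes, gene-desert regions in red over all shared regions in grey. The red points reach 39.6 and 71.3, where the grey ones reach 54.0 and 96.1, and 501 of the 597 red points lie above the line of equal values.

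The 10 strongest gene-desert regions, ranked by the smaller fold, had folds from 26.6 to 39.6 in replicate 1 and from 36.5 to 71.3 in replicate 2, from 81 to 121 and 80 to 157 fragments at the summit. They were wide, from 899 to 1942 bp, and lay 107.6 to 485.0 kb from a TSS. Among all shared regions they ranked between 12 and 140. The strongest, chr4:9109722-9111663, lay in the interval between Chd7, a chromatin remodeller of developmental enhancers, and Clvs1, 158.6 kb upstream of Clvs1. Its folds were 39.6 and 71.3, from 121 and 157 fragments. It was the only gene-desert region with the SMAD palindrome in its summit window. The second, chr15:50403531-50404593, lay 485.0 kb downstream of the start of Trps1, a GATA-type transcriptional repressor, with folds of 37.7 and 53.7. The third, chr16:77174461-77175750, lay 154.2 kb upstream of Mir99ahg, the host transcript of a microRNA cluster, with folds of 36.4 and 52.3.

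The region 160.3 kb downstream of the start of Lmo4, a LIM-only transcriptional cofactor, had folds of 33.5 and 48.3. That 107.6 kb upstream of Itga1, the α1 integrin subunit, had 33.8 and 38.4, and that 172.4 kb upstream of Cited2, a coregulator that binds CBP and p300, had 32.5 and 53.7. Regions near Spef2 (31.2 and 48.3), Zfp608 (28.9 and 46.0), Gm12708 (26.8 and 36.7) and Aebp2, a partner of the polycomb complex PRC2 (26.6 and 36.5), completed the 10. All 10 had the higher fold in replicate 2. Of the 10 summit windows, 6 held a C/EBP string, and 2 windows, those near Trps1 and Itga1, held none of the 16 strings. The rule left out predicted RefSeq transcripts, and the regions near Lmo4 and Cited2 lay inside one. Those near Zfp608 (6429 bp), Clvs1 (10859 bp), Aebp2 (80403 bp) and Itga1 (93436 bp) lay within 100 kb of a predicted start. Those near Trps1, Mir99ahg, Spef2 and Gm12708 stayed beyond 100 kb from any RefSeq start.

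The summits of gene-desert regions carried the strings of macrophage lineage factors. For each region the summit window was compared with a window of the same size centred 1 kb away. Of the 597 regions, 248 held the C/EBP string at the summit (41.5%, exact 95% interval 37.6 to 45.6) and 61 held it in the flank (10.2%), a summit share 4.07 times that of the flanks (adjusted p = 5.40e-32 over the 16 strings, two-sided exact McNemar test). C/EBPα and C/EBPβ are basic leucine zipper factors of myeloid cells. The PU.1 string (GAGGAAGT), of the ETS factor that all macrophages need, was found at 58 summits (9.72%) and in 7 flanks (1.17%), with 8.29 summits for each flank (adjusted p = 3.42e-10, exact McNemar test). The ETS string CAGGAAGT, of the ELF5 type, which differs from the PU.1 string only in its first letter, was found at 28 summits against 9 flanks (adjusted p = 0.0082, exact McNemar test).

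Strings of 3 further families were more frequent at summits. The AP-1 string (TGANTCA), of JUN and FOS factors, was found at 77 summits (12.9%) and in 38 flanks (adjusted p = 0.000523, exact McNemar test). The RUNX string (TGTGGTT) was found at 59 (9.88%) and in 24 (adjusted p = 0.000523, exact McNemar test). The nuclear receptor string (AGGTCA) was found at 100 (16.8%) and in 65 (adjusted p = 0.013, exact McNemar test). It is a single unit of the paired elements that retinoid and PPAR receptors recognise. In all, 6 of 16 strings were more frequent at summits and 0 were less frequent.

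**Figure D3:**
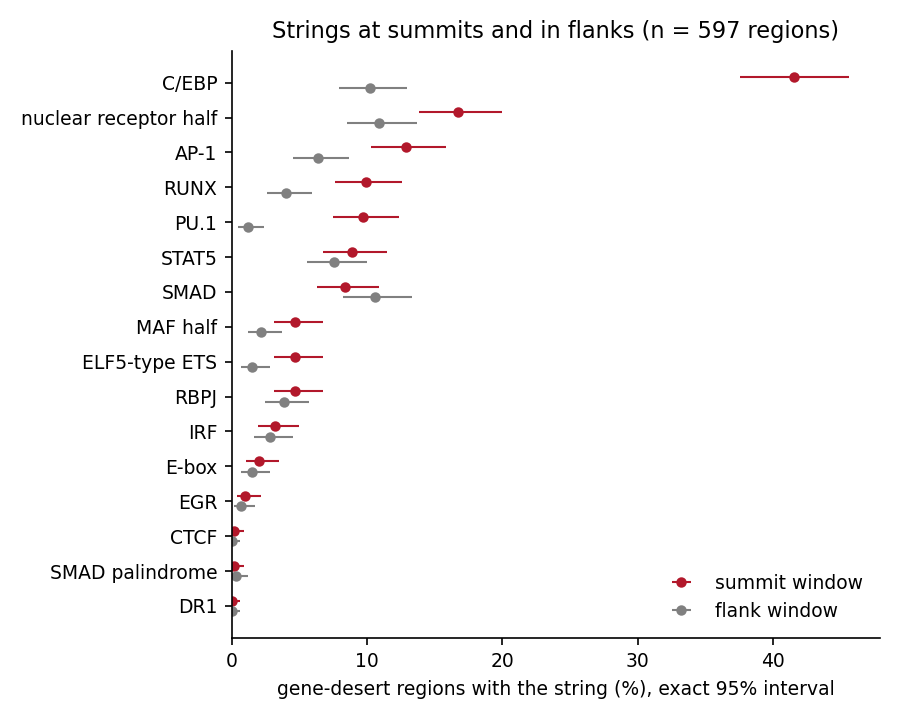
Points give the percent of the 597 gene-desert regions with each of the 16 strings (y axis) in the window of 100 bp each side of the summit (red) and in a flank window 1 kb away (grey), with exact 95% intervals. The C/EBP string stands at 41.5% of summits and 10.2% of flanks, while the SMAD string stands at 8.38% and 10.6% with overlapping intervals.

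The other 10 strings did not pass the test. The SMAD string (GTCTGG) was found at 50 summits (8.38%) and in 63 flanks (10.6%), 0.794 times as often at summits (adjusted p = 0.474, exact McNemar test). Its palindrome (GTCTAGAC) was found at 1 summit and in 2 flanks. Over all shared regions it was found at 51 summits (0.465%) and in 14 flanks (0.128%). At such low shares the counts in 597 regions are too small to decide anything. The MAF string (TGCTGAC) was found at 28 and in 13 (adjusted p = 0.0542, exact McNemar test). STAT5 (TTCNNNGAA), the effector of GM-CSF, had 53 and 45, RBPJ (GTGGGAA), the effector of Notch, had 28 and 23, the E-box (CACGTG) 12 and 9, IRF 19 and 17, EGR (GCGTGGG) 6 and 4, CTCF 1 and 0, and the direct repeat DR1 of RXR dimers 0 and 0; a count of 0 in 597 windows has an exact upper limit of 0.616%. Over all shared regions DR1 was found at only 0.073% of summits, so nothing is read from its count of 0. In that larger set STAT5 was found at 8.06% of summits and 6.54% of flanks, the E-box at 3.65% and 2.46%, and GTCTGG at 11.2% and 10.2%. With 597 regions the test may miss differences of that size, so strings that did not pass are not shown to be equal at summits and flanks. None of the 16 strings was found at the summits of 145 regions (24.3%), against 22.3% of all shared regions.

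The C/EBP and PU.1 strings stood close to the summit. Counted in bins of 50 bp, C/EBP matches reached 3.52 and 3.58 per region per kb in the bins on each side of the summit, and 0.570 in the bin 975 bp away. Among the 248 regions with the string, the nearest copy lay a median of 27 bp from the summit. Regions with 0, 1 and 2 or more copies (349, 196 and 52 regions) had median folds of 6.82, 7.15 and 7.62 in replicate 1 and of 9.02, 10.2 and 12.9 in replicate 2, an order that was the same in both libraries. In 4 groups of about 149 regions by the smaller fold, from weakest to strongest, 36.9%, 42.3%, 31.5% and 55.3% of regions held the string, so that the strongest group had the highest share and the third the lowest. C/EBP and an ETS string were both present in 31 regions, C/EBP alone of these in 217, ETS alone in 51 and neither in 298, with median folds of 7.46, 7.47, 8.12 and 6.82 in replicate 1 and of 10.8, 10.4, 10.5 and 9.02 in replicate 2. Regions with neither string had the lowest median in both libraries, and the order of the other 3 sets differed between them.

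**Figure D4:**
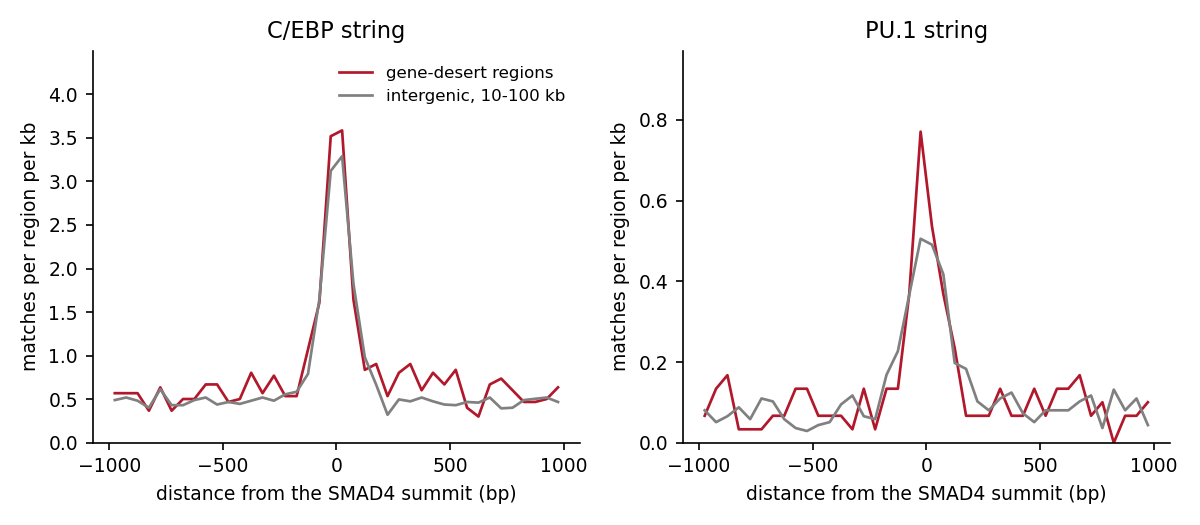
Lines give matches per region per kb (y axis) of the C/EBP and PU.1 strings in bins of 50 bp by distance from the summit in bp (x axis), for gene-desert regions (red) and intergenic regions at 10 to 100 kb (grey). Both strings peak within 100 bp of the summit in both classes, C/EBP at 3.58 per region per kb in the gene-desert regions.

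The string content was close to that of intergenic regions nearer to genes. The C/EBP share was 1.67 percentage points above the 39.9% of the 2731 regions at 10 to 100 kb, with a 95% interval of -2.64 to 6.06 (Newcombe), and 1.63 points above that of regions in transcripts beyond 10 kb (-2.56 to 5.92). The PU.1 share differed by 1.26 points from that at 10 to 100 kb (-1.14 to 4.07) and the AP-1 share by -0.54 (-3.33 to 2.63). Among the 16 strings, SMAD was the one whose interval against the 10 to 100 kb class left out 0 in these windows: GTCTGG was 3.38 points less frequent in gene deserts (8.38% against 11.8%, difference -3.38, interval -5.71 to -0.63). Against transcribed regions beyond 10 kb, SMAD (-2.75, -4.98 to -0.07) and the E-box (-1.72, -2.79 to -0.14) did so. The E-box difference from the 10 to 100 kb class was -1.51 (-2.65 to 0.09). These 32 intervals were not adjusted for their number, and which of them left out 0 changed with the library and the window. With the summits of replicate 2 alone, chosen as a check after the data were seen, the SMAD difference from the 10 to 100 kb class was -2.07 (-4.48 to 0.76), and its interval held 0, as did that of the E-box (-1.04, -2.28 to 0.67) and those of both differences from transcribed regions (-1.83, -4.15 to 0.93 for SMAD and -1.08, -2.26 to 0.61 for the E-box). With the summits of replicate 1 alone, the SMAD difference from the 10 to 100 kb class was -2.95 (-5.30 to -0.19) and that of the E-box -1.99 (-2.98 to -0.57). Against transcribed regions, the replicate 1 difference was -2.63 (-4.88 to 0.06) for SMAD and -2.12 (-3.03 to -0.73) for the E-box. In windows of 200 bp each side, the differences from the 10 to 100 kb class were -4.03 (-7.30 to -0.43) for SMAD and -2.23 (-3.82 to -0.18) for the E-box, and those from transcribed regions -3.20 (-6.36 to 0.30) and -2.74 (-4.27 to -0.73). All 16 differences were negative, but they measure the same regions again for strings picked after the data were seen. The tally therefore adds no support. The gene-desert summit windows also had a lower GC content, 41.5% ± 6.39 (SD over 597 regions) against 43.8% ± 5.96, a difference whose part in the SMAD share was not tested.

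Base composition followed the surroundings. The mean GC content of the 10 kb around the gene-desert regions was 41.3%, above the 39.1% of desert sequence as a whole and below the 44.1% around all shared regions. Repeat-masked bases made up 15.1% of summit windows, 24.9% of flank windows and 40.6% of desert sequence. In 40 regions (6.70%) more than 50% of the summit window was masked.

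Of 2112 gene-free intervals with sequence beyond 100 kb from a TSS, 285 held a gene-desert region. These 285 intervals had 140.3 Mb of the 686.1 Mb of desert sequence (20.4%), with a median of 0.256 Mb each against 0.129 Mb in the 1827 without a region. In 160 of these there was 1, and 125 held 2 or more, with 437 of the 597 regions (73.2%) between them. There were 30 intervals with 5 or more, holding 191 regions in 17.1 Mb of desert sequence. Whether the regions were more gathered than the lengths of the intervals give was not tested. The next shared region of any class lay a median of 20.2 kb away, and within 50 kb for 379 (63.5%), against 75.9% of all shared regions.

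The interval with the most regions, 10, was the 1154 kb on chromosome 15 between Pvt1, a long noncoding RNA next to Myc, and Gm20740. Its regions had folds from 4.83 to 21.1 in replicate 1 and from 4.06 to 30.2 in replicate 2, with replicate 2 higher at 7 of 10. The strongest, chr15:62349856-62350835, had 21.1 and 30.2. Of these, 9 lay 130.9 to 230.9 kb upstream of Macroh2a3. The other, chr15:62870999-62871875 (12.02 and 15.3), stood alone 608.2 kb downstream of the start of Gm20740. C/EBP strings were in 4 of the 10. Intervals with 9 regions followed next to Dusp6, a phosphatase of ERK, next to Lmo4, between Klf4 and Actl7b, and between Akr1e1 and 1700016G22Rik. The 9 regions next to Dusp6 spanned only 78.2 kb, with folds of up to 24.7 and 34.7, and those between Akr1e1 and 1700016G22Rik spanned 969.7 kb.

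The regions had 330 different nearest genes, 9.91% of the 3331 genes with any sequence beyond 100 kb for which they are nearest. The nearest gene was protein-coding for 375 regions (62.8%). Klf4 and Macroh2a3 were nearest to 9 regions each, Zfp608 and Gm17746 to 8, Cited2 to 7, and Trps1 and Atp2b1, a calcium pump of the plasma membrane, to 6. There were 10 genes with 5 regions each, of which Gm1653, Dusp6 and Gm6260 held the strongest single regions by the smaller fold and 7 others followed. All 7 regions of Cited2 were upstream, with folds from 4.87 to 32.5 and from 5.26 to 53.7, and all 5 regions of Dusp6 were downstream, with folds from 5.20 to 20.9 and from 8.07 to 25.9, 4 of them with a C/EBP string.

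Macrophage transcription factors had the most regions of the gene lists examined. Of 56 listed genes, 15 had sequence beyond 100 kb, and 7 of those were nearest to 24 regions, 13.4 per Mb of the 1.79 Mb that lies nearest to the 15 genes, where all genes had 0.870 per Mb. The 24 regions had folds from 3.58 to 25.0 (median 8.29) in replicate 1 and from 4.06 to 43.1 (median 11.3) in replicate 2, and 21 were higher in replicate 2. C/EBP strings were in 12 of them, and 19 lay upstream of their gene. The list was chosen with earlier results of these data known, and its density is given as a description. The comparison was not matched for distance from the TSS, and desert sequence at 100 to 200 kb held 1.61 regions per Mb.

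Klf4, a zinc finger factor of monocytes and macrophages, had 9 regions, all upstream, from 123.0 to 427.8 kb, in a gene-free interval of 1208 kb. Replicate 2 had the higher fold at all 9. By fragments at the summit it was lower at 280.0 kb (28 against 34) and 283.5 kb (51 against 58), and higher at the others. The strongest was the farthest, chr4:55959707-55960871, with folds of 25.0 and 43.1 from 76 and 102 fragments. It lay 6878 bp from a predicted RefSeq start, that of Gm34482, which the rule left out. Next came chr4:55815635-55816319 at 283.5 kb, with 14.3 and 21.8, and its neighbour chr4:55811722-55813222 at 280.0 kb, with 11.4 and 13.1. The weakest by the smaller fold, at 405.4 kb, had 3.58 and 7.67, and the other 5 had from 4.18 to 8.12 and from 7.22 to 12.6. Of the 9 summits, 4 held a C/EBP string and 2 the PU.1 string.

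Zeb2, a zinc finger repressor that preserves the identity of tissue macrophages, had 4 regions, all between 118.8 and 162.3 kb upstream. Their folds rose with distance, from 5.85 and 9.93 at 118.8 kb through 10.4 and 10.8, and 12.3 and 18.5, to 22.1 and 32.0 at chr2:45279272-45280142. The 3 strongest held a C/EBP string and 2 of them an AP-1 string. These 3 lay inside a predicted RefSeq transcript, and the nearest RefSeq start, predicted ones included, was that of Vis1. Runx1, a factor of blood cell formation, had 3 regions, 178.1 to 205.9 kb upstream, with folds of 7.80 and 9.48, 9.42 and 15.8, and 8.77 and 11.3.

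Rbpj, the nuclear effector of Notch, had 3 regions, 103.8 to 140.1 kb upstream. Their folds were 4.55 and 7.22, 8.45 and 7.22, and 7.15 and 17.6, so that the libraries put a different region first. Maf, a factor that restrains macrophage self-renewal, had regions at 278.8 kb (6.50 and 4.96) and 283.6 kb (9.84 and 16.7) downstream of its start. Klf6 had regions at 178.6 kb (4.55 and 4.06) and 179.4 kb (9.10 and 11.3). Mitf, a factor of lysosomal genes, had 1 region 100.5 kb downstream of its start with folds of 14.6 and 17.6 and both a C/EBP and an AP-1 string. Gata6, the factor of peritoneal macrophages, was nearest to none but flanked an interval with 1 region.

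**Figure D5:**
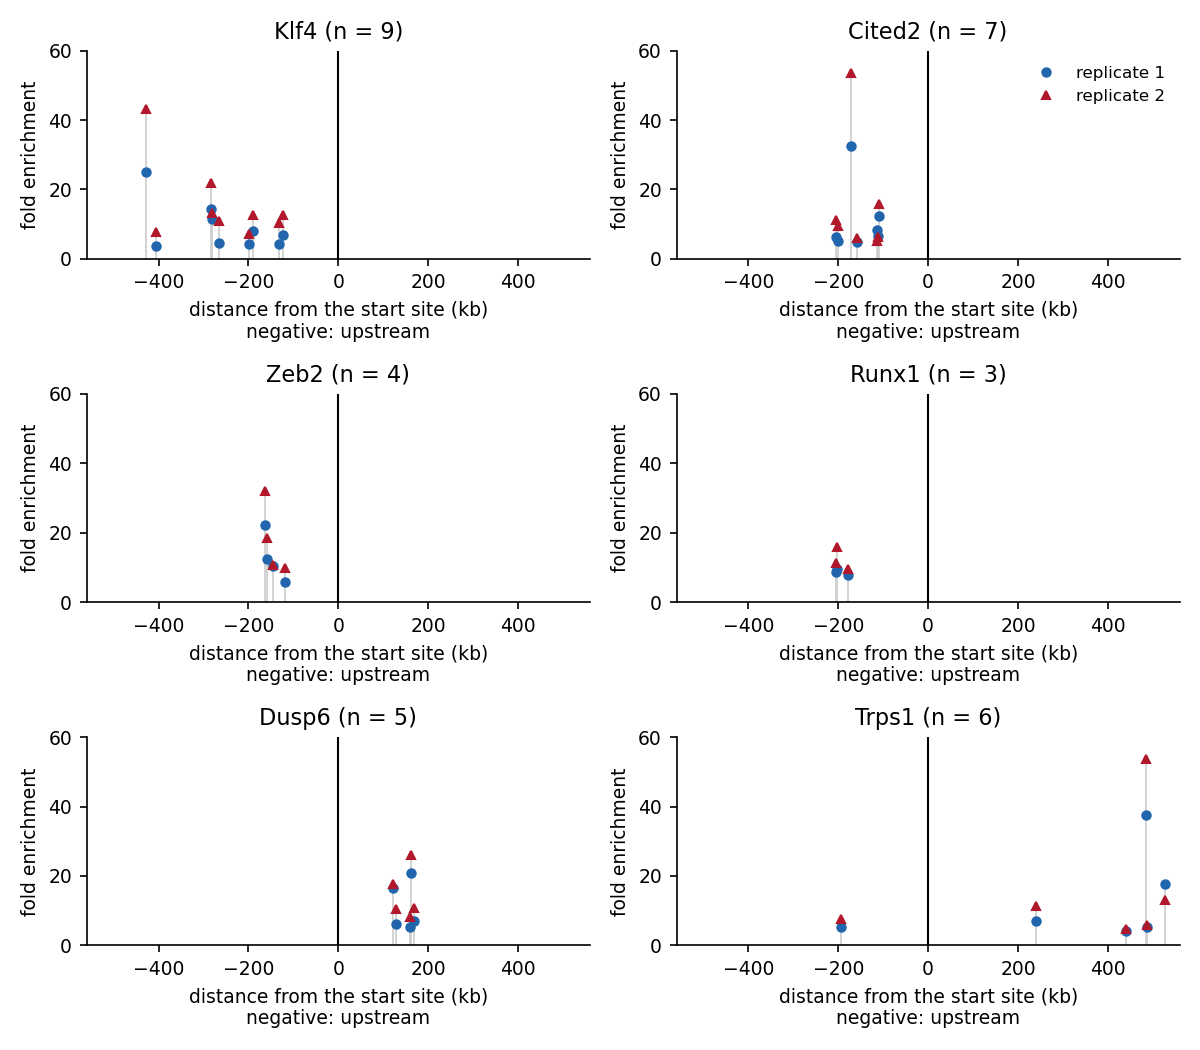
Each pair of points is a gene-desert region nearest to the named gene, placed by its distance from the TSS in kb (x axis, negative upstream), with its fold enrichment (y axis) in replicate 1 (blue circles) and replicate 2 (red triangles). The 9 regions of Klf4 reach 427.8 kb upstream, where the highest folds are 25.0 and 43.1, and those of Dusp6 are all downstream.

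The other lists had fewer. No gene of the TGFβ and BMP pathway was nearest to a gene-desert region, of 48 listed and 11 with sequence beyond 100 kb, though Bambi, a decoy receptor of the pathway, flanked 2 regions and Inhba, an activin subunit, flanked 1. Only 0.873 Mb of desert sequence lies nearest to those 11 genes, where all genes had 0.870 regions per Mb and 9.91% of genes were nearest to a region, so that a count of 0 is near the background and nothing is read from it. Among 79 macrophage receptors, cytokines and effectors, 10 had such sequence and only Itga4, the α4 integrin subunit, was nearest to regions, 2 in number (1.49 per Mb), while Il6, Cd93 and Dock10 flanked intervals with 1 region each. Of 73 developmental transcription factors, 38 had such sequence and 4 were nearest to 8 regions (0.750 per Mb), with 4 for Lmo4, 2 for Prdm1, and 1 each for Tshz1 and Gata3. Of 63 neural adhesion genes, 48 had such sequence, the most of any list at 37.0 Mb, and 3 were nearest to 5 regions (0.135 per Mb), namely Flrt2 with 3, Slitrk5 and Tenm2.

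For the labelled cell type, 11 of 12 AM markers, among them Siglecf, Itgax, Marco and Pparg, were nearest to a shared region of any class, and 3 of 13 markers of other lung or lavage cells (Scgb1a1, Pecam1 and S100a8), where 20.9% of the 26089 curated genes on the chromosomes examined were. None of the 25 markers was nearest to a gene-desert region, and only 2 of them, neither an AM marker, had any sequence beyond 100 kb. Peak lists report binding, not transcript levels, so this is no measure of purity.

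A small number of regions stood on a high control level. The control stood at its genome-wide background of 2.08 fragments in replicate 1 and 1.22 in replicate 2 for 72.2% and 72.0% of gene-desert summits, against 81.7% and 82.5% of all shared regions. It exceeded 5 times the background in replicate 1 at 12 shared regions, 7 of which were in gene deserts, and in replicate 2 at 11, of which 6 were. Of these 7, 3 lay 1194.9 to 1199.5 kb downstream of the start of Lrrc4c on chromosome 2. They had a control level of up to 152.9 and 91.7 fragments and folds of at most 2.44 and 4.06. They are among the 5 regions farthest from a TSS. A pair near Gm2237 on chromosome 14 had folds of 1.92 and 2.32, and 2.12 and 2.56. The region at chr17:39843025-39848825, nearest to Esp38, was 5801 bp wide, the widest of all shared regions, and overlaps the ribosomal RNA pseudogene Rn18s-rs5 in the RefSeq annotation. The region near Pex2, chr3:5860338-5860819, had a control level of 14.9 and 4.63 fragments and folds of 7.05 and 27.7. Without these 7, the 590 others had the same median folds of 7.15 and 9.93.

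Membership depended on the gene annotation. Predicted RefSeq transcripts, which the rule left out, contained 101 of the 597 midpoints, and a predicted start lay within 100 kb of 275 others, so that 221 (37.0%) remained beyond 100 kb from any RefSeq transcript start and outside any RefSeq transcript. GENCODE M21 long noncoding RNAs contained 83. None of the 597 overlapped one of the 1015 RefSeq functional enhancers. Only 30 of all 10964 shared regions did, so that a count of 0 is near the background and nothing is read from it. Just inside the distance limit were those of Gm10556 (100007 bp, folds 5.85 and 9.48), 4930431F10Rik (100064 bp, 6.17 and 3.18) and Atp6v0c-ps2 (100161 bp, 4.55 and 5.87). Just outside it were those of Mir680-3 (99910 bp, 12.02 and 15.8), 1700121N20Rik (99827 bp, 4.55 and 5.87) and Bmp2, a BMP ligand (99604 bp, 4.47 and 4.51). The region farthest from a TSS was chr1:141948035-141948571, 1291.9 kb upstream of 4930590L20Rik, with folds of 7.98 and 8.07 and both a PU.1 and an AP-1 string. The next, 1288.6 kb downstream of the start of 1700017L05Rik, had 4.22 and 5.87.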

How the data were processed

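SMAD4 HT-ChIPmentation peak lists of 2 AM libraries were analysed. The 2 input libraries were not used here except as the control that the authors' peak calls contain. Reads had been trimmed (Cutadapt), aligned to mm10 (Bowtie2) and cleared of duplicates by the authors, who kept properly paired reads of high mapping quality, and called peaks in each library with MACS3 against input at a q-value limit of 0.05. For each peak the authors deposited a fold ratio over control at the summit, its −log10 p, its −log10 q, and a score made from q. The deposited fold ratio and −log10 p were solved for fragments at the summit and the control level, and this was tested on simulated data. Total read depth was not used here.

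Peaks of both lists overlapping by 1 bp or more were merged. Positions were compared with 45756 curated RefSeq transcripts of 26180 genes (GRCm38), and all peaks lay within its chromosome ends. The deposited fold of a region's strongest peak in each library was its value. Strings were searched on both strands, 100 bp each side of the mean summit and in a flank centred 1 kb toward the chromosome end, and each region's pair was compared (two-sided exact McNemar test, p-values adjusted after Benjamini and Hochberg over 16 strings). DR1, CTCF and IRF strings were longer and are given by name. DR1 contains the nuclear receptor string, and MAF and nuclear receptor matches can overlap. Shares have exact 95% binomial intervals and differences Newcombe intervals. Analyses used Python 3.11.15, pandas 2.3.3, scipy 1.17.1 and statsmodels 0.14.6.

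The members and gene lists were chosen with earlier results of these data known. Regions named were the 10 with the highest smaller fold, the 5 farthest, those of the fullest interval, and the 3 on each side of the limit. Genes named were their nearest genes, the 10 nearest to most regions (ties, by a choice made after the values were seen, by the smaller fold of the strongest region), and list genes nearest to or flanking a region. The 7 regions of high control level, the intervals with 9 regions and chromosomes 7 and 10 were singled out after their values were seen.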

Additional observations from a re-analysis of the deposited data

How the results depend on the processing

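Of 44 alternatives, 31 left a result within its limits and 13 moved it. The sizes of those limits are not given here, so the tally is a description and no test of robustness. Counts, shares and median folds have no direction that could reverse. Only the C/EBP difference from regions at 10 to 100 kb has one, and it stayed positive in its alternatives. The number of regions, 597, was 221 with all RefSeq transcripts, 982 with protein-coding transcripts only, 1311 with a limit of 50 kb and 207 with a limit of 200 kb. With 1 library alone, without asking for a partner, it was 1513 to 2075. A 50% reciprocal overlap left 493 and a fold of at least 5 left 442. The partner share of gene-desert peaks in replicate 1 rose from 29.8% to 64.1% with a fold of at least 5 asked of both lists, where all peaks had 85.6%. It was 23.7% with a 50% reciprocal overlap, where all had 54.5%. In replicate 2 it was 50.8% and 32.5%, where all peaks had 57.7% and 46.9%. The C/EBP share, 41.5%, was 29.8% in windows of 50 bp each side, 51.4% in windows of 200 bp, and 27.1% with another string (TT, 2 purine-pyrimidine steps, AA). The limits, annotations and windows differ by construction, and for the partner share the cause was not tested. Using the summits of 1 library it was 38.7% to 42.9%. Its difference from regions at 10 to 100 kb ranged from 0.47 to 5.07 points, and every interval contained 0.

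The count of strings more frequent at summits, 6, was 5 or 6 throughout. C/EBP, PU.1, AP-1 and RUNX passed in all 9 alternatives. The ETS string CAGGAAGT did not pass with flanks 5 kb away, with windows of 50 bp, or with the summits of replicate 2 alone, the nuclear receptor string did not with flanks 5 kb away, and the MAF string passed with flanks 5 kb away and with replicate 2 alone. Leaving out the 7 regions of high control level and the checks of the SMAD and E-box differences were chosen after seeing the data. Comparisons between classes of regions are paired within each library, and with 2 libraries the paired exact permutation test cannot go below 0.5, so that both libraries' values are given in its place.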
